A study of Mus musculus with 8 samples.

Results

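Spp1, the gene of the secreted matrix protein osteopontin, and the genes of its receptors were examined in myeloid cells sorted from the sciatic nerve of injured and sham-operated mice. The receptor genes were Cd44, Itgav, Itgb1, Itgb3, Itgb5 and Itga4. The 7 genes were chosen by name, as 1 ligand with its best known receptors, out of 30406 genes listed in all 4 single-cell libraries. C57BL/6JolaHsd mice of both sexes were operated on, and nerves were taken after 1 week or 15 weeks. The groups were PSNL at 15 weeks (4 samples, F1, F2, M1 and M2), crush at 15 weeks (3 samples, F1, F2 and M1), PSNL at 1 week (1 female and 1 male sample), crush at 1 week (1 female and 1 male sample) and sham at 1 week (1 female and 1 male sample). In PSNL, partial sciatic nerve ligation, a suture is tied tightly around part of the nerve. In crush the nerve is squeezed with forceps, and in sham it is only exposed. No sham sample at 15 weeks was analysed here. The mice were perfused, and cells bearing CD45 and CD11b were sorted, with Ly6G-bearing neutrophils gated out at the early time according to the study's methods. Samples were told apart by hashtag antibodies, and the labels do not say whether 1 hashtag sample is 1 mouse or a pool, so the p-values below measure the spread between hashtag samples.

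Osteopontin is an acidic glycoprotein that macrophages secrete in wounds, in bone and around lipid deposits, and it acts both as matrix and as a signal for adhesion, migration and survival. It binds integrins, which are pairs of an alpha and a beta chain, and the hyaluronan receptor CD44. The alpha v chain (Itgav) pairs with the beta chains of Itgb1, Itgb3 or Itgb5 and reads the arginine-glycine-aspartate motif of osteopontin. The alpha 4 chain (Itga4) pairs with the chain of Itgb1 and reads a neighbouring stretch that is uncovered when thrombin cuts the protein. In peripheral nerve after injury, osteopontin has been described in Schwann cells and in macrophages.

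The coding stretch that carries this integrin motif is shown because all of the integrin genes below meet Spp1 through it. It is a window of 72 coding bases inside exon 6 of 7 of the transcript Spp1-201. The window lies at chr5:104439460-104439531 on the plus strand of GRCm38, read from the reference genome, 5′ to 3′. The line below is named for that exon, and the ends of the window were not matched to the ends of the exon. The capitals mark the 3 codons of arginine, glycine and aspartate, at positions 104439481 to 104439489, and the lower-case bases just after them code for the stretch next to the thrombin site.
Spp1 exon 6: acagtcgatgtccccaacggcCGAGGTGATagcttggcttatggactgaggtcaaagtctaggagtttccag
Of the 7 annotated Spp1 transcripts, 6 hold the motif in their coding bases. The libraries count UMIs per gene, so transcripts with and without it were not told apart.

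After filtering, 6551 cells of 9133 barcodes were left in the 13 hashtag samples. The samples held 288 to 1555 cells at 15 weeks, 332 to 874 cells in the injured groups at 1 week, and 64 and 106 cells in the female and male sham samples. Summed UMIs ran from 247765 in the sham female to 15291578 in the crush male at 15 weeks. All 4 markers of the sort that were looked up (Ptprc, Itgam, Csf1r and Adgre1) were detected in each of the 13 samples, and Xist separated the sexes of the labels, with at most 1.39 CPM in male and at least 767 CPM in female samples. Between 3 and 7 barcodes of each library also occurred in another library. PSNL and crush were run in separate libraries at both times, each library at 1 week with 1 of the sham samples, and the times were separate batches. At 1 week only the sham samples, 1 in each library, link the libraries of PSNL and crush. At 15 weeks injury and library cannot be told apart, nor can time and batch.

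Of the 7 genes, 6 passed the filter on low counts and were tested among 11485 genes. Spp1 (ENSMUSG00000029304, chr5:104435118-104441050, plus strand) had 64959 UMIs in the kept cells and at least 1 UMI in 32.9% of them. Cd44 (chr2:102811141-102901665, minus strand) had 15654 UMIs in 61.4% of cells. Itgb1 (chr8:128685654-128733200, plus strand) was found in 75.1% of cells, Itga4 (chr2:79255426-79333123, plus strand) in 59.3%, Itgb5 (chr16:33829665-33949338, plus strand) in 57.5% and Itgav (chr2:83724397-83806916, plus strand) in 39.9%. Itgb3 (chr11:104608000-104670476, plus strand) was the member that did not pass, with 57 UMIs in 0.763% of cells. Over all kept cells pooled, the ligand transcript was therefore found in fewer cells than the transcripts of 5 of its receptor chains. The order was not the same in every group, since in PSNL at 1 week Itgav, Itgb5 and Itga4 were each found in fewer cells than Spp1. The shares of Spp1 and Itgb5 in that group are given below.

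Spp1 was highest in PSNL at 1 week. Its level in CPM (UMIs per 1000000 UMIs of the sample, after TMM scaling) was 7327 in the female and 8870 in the male PSNL sample at 1 week, against 1222 and 467.5 CPM in the female and male crush samples, and 74.3 and 82.2 CPM in the female and male sham samples. The 3 groups did not overlap, PSNL lay above crush and crush above sham. The share of all genes whose groups separate in this way was not counted. Here and below, a lack of overlap therefore only describes the values. At 15 weeks Spp1 was at 127, 44.3, 146 and 312 CPM in PSNL F1, F2, M1 and M2, and at 125, 129 and 359 CPM in crush F1, F2 and M1. Those groups overlapped each other and lay below both injured groups of 1 week, and PSNL F2 lay below both sham samples. The group means were 157 ± 112 CPM in PSNL at 15 weeks (SD, n = 4), 204.5 ± 134 CPM in crush at 15 weeks (n = 3), 8099 ± 1092 CPM in PSNL at 1 week (n = 2), 845 ± 533.5 CPM in crush at 1 week (n = 2) and 78.2 ± 5.63 CPM in sham (n = 2).

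**Figure D1:**
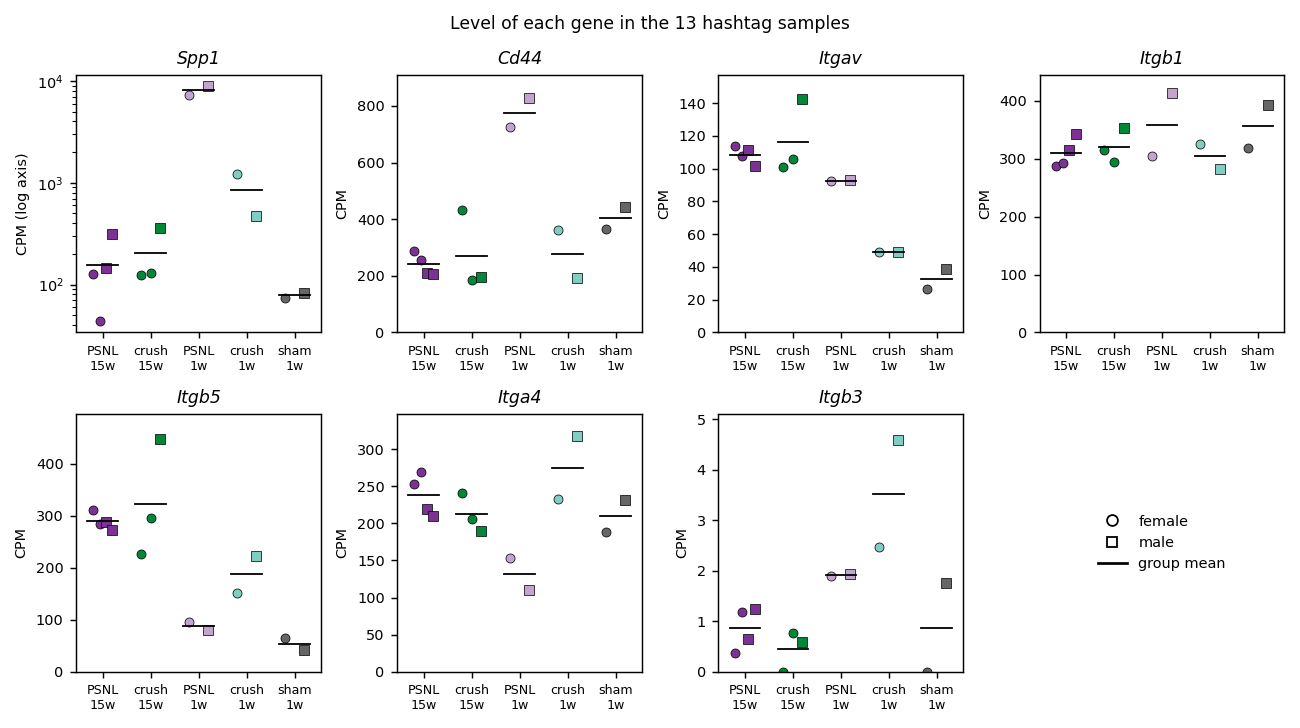
Level of each of the 7 genes in the 13 hashtag samples, in CPM after TMM scaling (vertical axis, linear except for Spp1, which has a log axis). Circles are female and squares male samples, lines are group means, and Spp1 lies at 7327 and 8870 CPM in PSNL at 1 week, above all other samples, while Itgb1 has overlapping groups throughout.

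The comparison of PSNL with sham at 1 week asks what a lasting partial injury adds to surgery alone. Spp1 was higher in PSNL by 6.68 on the log2 scale (SE 0.94, 102.5-fold, adjusted p = 0.0032, edgeR's quasi-likelihood test with Benjamini-Hochberg adjustment, n = 2 and 2), where 5.21% of all tested genes were called in either direction. Itgav, the alpha v chain, was also higher, by 1.43 (SE 0.24, adjusted p = 0.0066). With library as a term in a fit of the 1 week samples, Spp1 kept its call (6.67, adjusted p = 0.0235) and Itgav lost it (1.72, adjusted p = 0.0728). The other 4 tested members were not called, at 0.93 for Cd44, 0.79 for Itgb5, -0.69 for Itga4 and 0.00 for Itgb1. The median change of the 6 tested members was 0.86, beside 0.10 for all tested genes. Spp1 kept its call when any 1 of the 13 samples was left out, with values of 6.55 to 6.83. Since these are sums over all cells of a sample, more cells of a type that holds Spp1 and more Spp1 RNA per cell cannot be told apart in this comparison.

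Crush was compared with sham in the same way, for an injury after which axons can regrow. Of all tested genes, 19 were called (0.165%), against 1272 at an unadjusted p under 0.05, and no member was among the 19. Spp1 was at 3.42 (SE 0.85, adjusted p = 0.14) and Itgb5 at 1.89 (SE 0.35, adjusted p = 0.059). DESeq2 called both, Spp1 at 3.35 (adjusted p = 0.013) and Itgb5 with an adjusted p of 0.00088. Under HTODemux, another rule for assigning hashtags, Spp1 was only at 1.064 (adjusted p = 0.6532), without a call. Itgb5 was called there, at 1.833 (adjusted p = 0.02718). The size of the Spp1 difference between crush and sham thus depended on the hashtag rule.

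Between the injuries at 1 week, 5 of the 6 tested members differed. Spp1 was higher in PSNL than in crush by 3.26 on the log2 scale (SE 0.77, 9.60-fold, adjusted p = 0.0172), Cd44 by 1.49 (SE 0.39, adjusted p = 0.0258) and Itgav by 0.91 (SE 0.18, adjusted p = 0.0088). Lower in PSNL were Itga4, by -1.07 (SE 0.22, adjusted p = 0.0091), and Itgb5, by -1.10 (SE 0.29, adjusted p = 0.0268). Itgb1, the shared beta chain, was at 0.24 (adjusted p = 0.43). The background was 12.5% of tested genes called. With 2 samples on each side the calls rest on few libraries. Only the sham female and the sham male, with 64 and 106 cells, link the 2 libraries in a fit with library as a term. Spp1, Itgav and Itga4 lost the call without the PSNL male or without the crush male (Spp1 values of 2.73 to 4.11 over the leave-one-out fits), Cd44 and Itgb5 also without the PSNL female, and a fit of the 1 week samples with library as a term called none of the 5 (adjusted p = 0.19 for Spp1, 0.25 for Cd44, 0.27 for Itgav, 0.44 for Itga4 and 0.22 for Itgb5).

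Neutrophil markers moved with this comparison. The summed level of 8 neutrophil genes was 14300 and 4960 CPM in the PSNL female and male, 1050 and 2050 CPM in the crush female and male, and 456 and 3670 CPM in the sham pair. All 8 were detected in each of these 6 samples, and S100a8, which neutrophils hold in abundance, was at 5480 and 2010 CPM in PSNL against 321 and 528 CPM in crush, although the early sort was set to leave Ly6G-bearing cells out. Without the cells gated as neutrophils or lymphoid cells no member call changed. Spp1 was then at 3.33 (adjusted p = 0.0149) and Cd44 at 1.34 (adjusted p = 0.0422) between PSNL and crush, and Spp1 at 6.75 between PSNL and sham. The summed level of 6 markers of a macrophage state that holds arginase was, like Spp1, higher in PSNL than in crush and sham. The 6 genes were Arg1, Hmox1, Vegfa, Slc2a1, Ero1l and Hilpda. Their sum was 1570 and 2500 CPM in PSNL, 168 and 141 CPM in crush and 307 and 250 CPM in sham. It was thus lower in crush than in sham, whereas Spp1 was higher in crush than in sham. Arg1 itself was at 791 and 1270 CPM in PSNL, at 2.25 and 7.35 CPM in crush and at 16.1 and 0 CPM in the female and male sham. The part of these markers in the result was not tested.

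At 15 weeks no gene was called between PSNL and crush (0 of 11485 tested, 0.0%, with 556 at an unadjusted p under 0.05; DESeq2 called 8). Spp1 was at -0.39 (SE 0.54, adjusted p = 0.99). The other members lay between -0.18 for Cd44 and 0.17 for Itga4, with SEs of 0.13 to 0.29. Without the crush male M1, the sample with the most cells, the Spp1 value was 0.30.

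The times coincide with the batches, and many genes differed between them. In PSNL at 15 weeks against PSNL at 1 week 56.3% of all tested genes were called, beside 4 of the 6 tested members. Spp1 fell by 5.69 (SE 0.64, 51.5-fold, adjusted p = 1.3e-05) and Cd44 fell by 1.69 (SE 0.31, adjusted p = 0.00061). Itgb5 rose by 1.72 (SE 0.26, adjusted p = 0.000151) and Itga4 by 0.86 (SE 0.19, adjusted p = 0.00225). Itgav was at 0.23 and Itgb1 at -0.21, both without a call. The call for Itga4 was lost without the PSNL male of 1 week (adjusted p = 0.0528). In crush at 15 weeks against crush at 1 week 42.6% of genes were called, beside 3 of the 6 members. Both counts of members lie near the background. Spp1 fell by 2.04 (SE 0.64, 4.10-fold, adjusted p = 0.0222), Itgav rose by 1.25 (SE 0.17, adjusted p = 0.000125) and Itgb5 rose by 0.79 (SE 0.26, adjusted p = 0.0267). Cd44, Itgb1 and Itga4 were not called, at -0.03, 0.08 and -0.38. The fall of Spp1 in crush was not called without crush F1 or F2 of 15 weeks or the crush female of 1 week, with values of -2.70 to -1.18 over the 13 leave-one-out fits, nor without the single cell with the most Spp1 in each sample (-1.15, adjusted p = 0.157). The call for Itgb5 in crush was lost without crush M1 of 15 weeks or the crush female of 1 week. Gm42418, a transcript that overlaps a copy of ribosomal RNA, took 7.24 to 18.4% of UMIs at 1 week and 1.33 to 2.36% at 15 weeks, and its part in these changes was not tested.

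**Figure D2:**
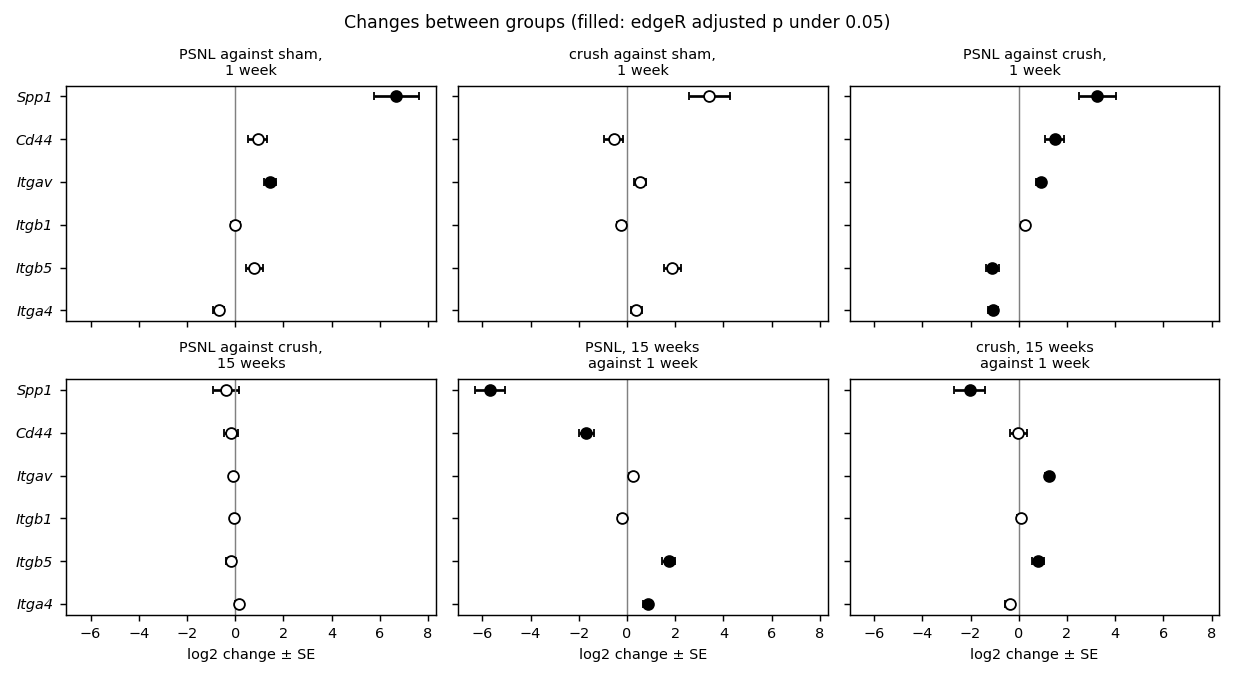
Log2 changes of the 6 tested genes in 6 comparisons (horizontal axis, with bars of 1 standard error), filled where edgeR's adjusted p was under 0.05. Spp1 has the widest range, from 6.68 in PSNL against sham to -5.69 in PSNL at 15 weeks against 1 week, and no symbol is filled for PSNL against crush at 15 weeks.

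Whether PSNL and crush differed more at 1 week than at 15 weeks was tested directly, as the PSNL minus crush difference at 1 week less that at 15 weeks. It was called for 7.73% of all tested genes and for 3 of the 6 members. The value was 3.65 for Spp1 (SE 0.92, adjusted p = 0.0321), 1.02 for Itgav (SE 0.23, adjusted p = 0.0197) and -1.24 for Itga4 (SE 0.27, adjusted p = 0.018). Cd44 was at 1.67 (adjusted p = 0.0515), Itgb5 at -0.93 (adjusted p = 0.13) and Itgb1 at 0.30. The Spp1 call was lost when any 1 of PSNL F1 or M1 of 15 weeks, either PSNL sample of 1 week or the crush male of 1 week was left out, with values of 2.97 to 4.50. The Itgav call was lost without any 1 of the 4 injured samples of 1 week, and the Itga4 call without either male of 1 week.

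Spp1 was unevenly held within samples, and most of all in the sham male and both crush samples of 1 week. In the crush female at 1 week 1 cell had 1401 of the 2484 Spp1 UMIs, and the 3 highest cells together had 73.1%. In the crush male 1 cell had 680 of 1528 UMIs and the 3 highest had 54.8%. In the sham male 1 cell had 40 of 47 UMIs. Thus the crush level at 1 week stood on a handful of cells, and without the 3 highest cells of each sample it was 299.7 CPM in the crush female and 195 CPM in the crush male, before TMM scaling. PSNL at 1 week was unlike this. In the PSNL female 277 of 532 cells and in the PSNL male 525 of 874 cells had a Spp1 UMI, 22 and 50 cells held 50% of the UMIs, and without the 3 highest cells the level was still 5579 and 6711 CPM. At 15 weeks 5 to 38 cells, or 1.24 to 3.24% of a sample, held 50% of its Spp1. The crush female's top cell had 32342 UMIs in all, and HTODemux, another hashtag rule, called it a doublet. The sham male's top cell was among the 6% of its library with the highest doublet scores.

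**Figure D3:**
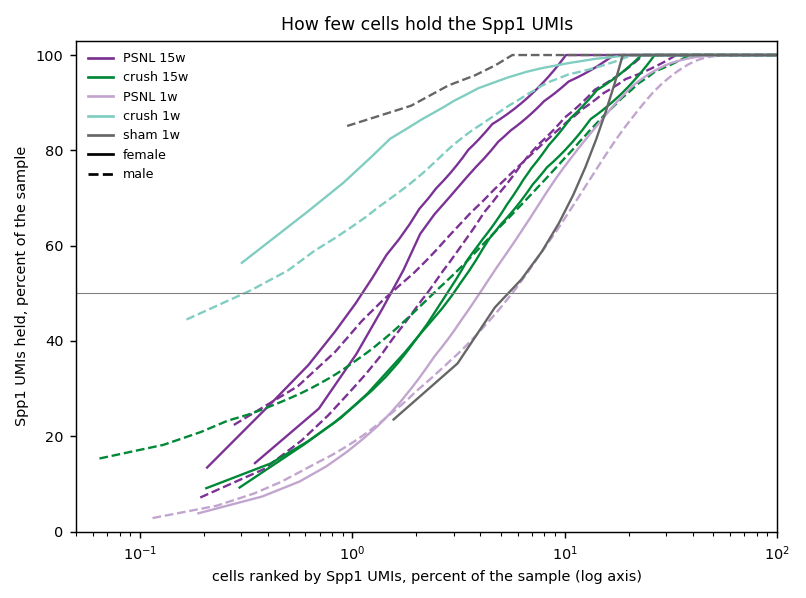
Share of a sample's Spp1 UMIs (vertical axis, percent) held by its highest cells (horizontal axis, percent of the sample's cells, log axis), 1 line for each of the 13 samples, solid for female and dashed for male, with a grey line at 50%. The crush lines of 1 week and the sham male start highest, at 1 cell, and the PSNL lines of 1 week reach 50% at 4.14 and 5.72% of cells.

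Because the libraries differed in depth, shares of cells with a UMI were also compared after thinning each cell to 2000 UMIs and leaving out 36 to 288 shallower cells per group. Spp1 was then found in 11.0 ± 6.25% of cells in PSNL at 15 weeks (SD, n = 4), 15.3 ± 4.64% in crush at 15 weeks (n = 3), 53.5 ± 3.82% in PSNL at 1 week (n = 2), 12.1 ± 0.636% in crush at 1 week (n = 2) and 6.45 ± 5.87% in sham (n = 2, 5 of 47 cells and 2 of 87 cells). Without thinning the shares were 10.1 to 33.4% in PSNL at 15 weeks, 23.0 to 38.7% in crush at 15 weeks, 52.1 and 60.1% in PSNL at 1 week, 19.9 and 20.7% in crush at 1 week and 18.8 and 5.66% in sham. PSNL at 1 week stood above every other sample on both scales, while the crush samples of 1 week, at 11.6 and 12.5%, lay next to the sham female at 10.6%. Of the receptor genes, Cd44 was in 58.0 ± 3.11% of thinned cells in PSNL at 1 week, 28.7 ± 8.49% in crush and 36.5 ± 3.61% in sham. Itgb5 was in 44.2% of thinned cells in PSNL and 45.7% in crush at 15 weeks, and in 13.8% in PSNL, 23.0% in crush and 11.6% in sham at 1 week. Itgb3 was in at most 0.403%.

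Spp1 was also found in cells gated as neutrophils, which are not a usual source of osteopontin. In PSNL at 1 week 20 of 65 thinned neutrophil-gated cells of the female (30.8%) and 18 of 44 of the male (40.9%) had a Spp1 UMI, and without thinning 80 of 250 (32.0%). In crush at 1 week 0 of 31 had one, which allows a share of up to 9.68%. The median depth of these cells was 1876 UMIs in PSNL, against 5884 UMIs in the Arg1-gated cells of PSNL. In dendritic-gated cells of the same PSNL samples, with a median depth of 5653 UMIs, the thinned shares were 7.41% in the female and 7.14% in the male, and 24.2% and 16.7% without thinning. The source of the Spp1 UMIs in neutrophil-gated cells was not tested.

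Both sexes shared each library, so RNA of the other sex measures how much RNA reached a sample from samples of the other sex. RNA that moved between cells of 1 sample, or between samples of the same sex, leaves no trace in this measure. In the PSNL male at 1 week 7 Xist UMIs were found, 0.387% of the library's Xist level, and the same share of the library's Spp1 level would come to 21.4 CPM, against 7293 CPM observed before TMM scaling. In the PSNL female no UMI of the 4 Y-linked genes was found, which allows up to 1.4%, or 77.7 CPM of Spp1. RNA from samples of the other sex was thus small beside the Spp1 of both PSNL samples. Spread of Spp1 RNA between the cells of a PSNL sample was not measured by this. The sham female, in the PSNL library, had too few UMIs for a like statement, since 0 UMIs there allow up to 14.1% or 779 CPM, against 68.6 CPM observed. In the sham male 0 UMIs allow up to 1.21% or 6.64 CPM, against 77.4 CPM observed. In the crush female the share was 1.91% or 10.5 CPM, and in the crush male 0.0692% or 0.38 CPM. These intervals cover counting error only. RNA that spreads from 1 source would keep its genes in 1 ratio only if the receiving cells make none of them. The ratio of Spp1 UMIs to the summed UMIs of 10 other genes that lead the Arg1-gated cells (Cxcl1, Cav1, Areg, Ppbp, Pdpn, Cxcl3, Rnf128, Fn1, Cd36 and Cav2) was 1.41 in neutrophil-gated and 2.23 in Arg1-gated cells of the PSNL female, and 1.16 in neutrophil-gated and 1.38 in Arg1-gated cells of the PSNL male. In dendritic-gated cells it was 2.25 in the female, on 9 Spp1 UMIs, and 0.294 in the male, on 20. In the female and male it was 2.45 and 2.08 in ungated, 1.22 and 2.21 in monocyte-gated and 1.05 and 0.959 in migratory dendritic-gated cells. Lipid-laden gated cells of the male were at 4.55. The 10 genes were picked from the Arg1 gate of these same samples, and Fn1 was also a leading gene of ungated cells. The ratios thus cannot tell where the Spp1 UMIs of a gate came from.

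To place the genes in cell types, each cell was scored with 13 lists of marker genes that contained none of the 7 members, and a cell was gated to a list when its mean z-score was at least 0.5 and at least 0.25 above that of the next list. A gate is a range of a score and not a proven cell type, 21.0% of cells lay near a threshold, and cells without a leading list are called ungated. Gated cells were compared with all other cells of the same samples. Lipid-laden gated macrophages were marked by genes of lipid uptake and lysosomes such as Gpnmb, Fabp5 and Lpl. They had more Spp1, by 3.71 on the log2 scale (SE 0.42, adjusted p = 1.9e-06, 8 samples, 27.9% of genes called). Arg1-gated macrophages were marked by Arg1, Hmox1, Vegfa, Slc2a1, Ero1l and Hilpda. The gate used the mean score of that list, so it did not require Arg1 itself. These cells had more Spp1 by 1.75 (SE 0.17, adjusted p = 1.3e-05, the 2 samples of PSNL at 1 week, 17.0% called). The other cells came from different samples in these 2 tests, so the sizes of the 2 differences cannot be ranked. In 7 other gates and in ungated cells Spp1 was lower than in the rest of the same samples. The difference was -4.58 in dendritic-gated cells with MHC class II (10 samples, 35.1% called) and -3.04 in resident-gated macrophages (9 samples, 33.7% called). It was -2.95 in migratory dendritic-gated cells (2 samples, 17.3% called) and -2.58 in eosinophil-gated cells (2 samples, 7.7% called). Neutrophil-gated cells were at -2.33 (3 samples, 31.2% called) and monocyte-gated cells at -2.22 (3 samples, 4.79% called). Ungated cells were at -1.07 (13 samples, 4.38% called) and cells gated as microglia-like endoneurial macrophages at -0.86 (9 samples, 14.4% called). All 8 had an adjusted p of at most 0.013. Both samples of the eosinophil gate were crush at 1 week, whose Spp1 stood on a handful of cells. Cells that scored highest on the fibroblast list, in 3 samples of 15 weeks, had more Spp1 by 1.09 (adjusted p = 2.0e-05, 1.2% called), but the list's collagen gene Col1a1 was in 1.11% of all kept cells, and neither this gate nor those of Schwann, endothelial and lymphoid cells is described as a cell type.

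By level within a gate, Spp1 was at 15200 and 11100 CPM of the gate's UMIs in Arg1-gated cells of the PSNL female and male at 1 week. In lipid-laden gated cells it was at 877 and 1090 CPM in PSNL M1 and M2 at 15 weeks, at 692, 604 and 558 CPM in crush F1, F2 and M1 at 15 weeks, at 22900 CPM in the PSNL male at 1 week, and at 11400 and 6910 CPM in the crush female and male at 1 week. The early samples of that gate therefore lay above the late ones, on 20 or 21 cells each. Microglia-like gated cells held 31.2 to 199 CPM at 15 weeks and 499 and 355 CPM in crush at 1 week. Resident-gated macrophages held 5.57 to 37.6 CPM at 15 weeks, with 58.9 CPM in the female sham sample and 394 CPM in the male one, which contains the single cell with 40 UMIs. Dendritic-gated cells held 8.41 to 95.1 CPM in all 10 samples with enough cells. Spp1 was at 1870 and 2830 CPM in monocyte-gated and at 1310 and 1670 CPM in neutrophil-gated cells of PSNL at 1 week, against 16.9 CPM and 0 CPM in those of the crush male. A gap between the PSNL samples and the crush male thus also showed in these gates, whose Spp1 was lower than that of the other cells of their samples.

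**Figure D4:**
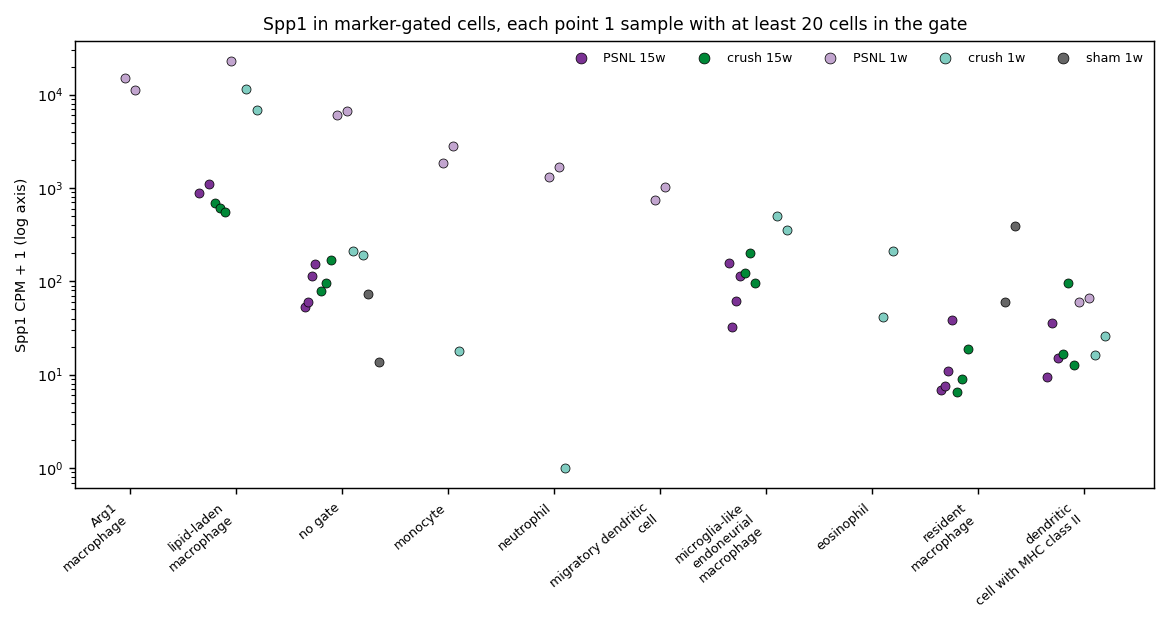
Spp1 in gated cells, as CPM + 1 of the gate's own UMIs (vertical axis, log), each point 1 sample with at least 20 cells in the gate, coloured by group. Arg1-gated cells of PSNL and lipid-laden gated cells at 1 week lie between 6910 and 22900 CPM, and resident-gated and dendritic-gated cells at 394 CPM or lower.

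The gates also show where the Spp1 of each group lay. In PSNL at 1 week Arg1-gated cells made up 28.2% of cells and held 62.3% of the Spp1 UMIs (62.5% in the female and 62.2% in the male), ungated cells held 20.7% and neutrophil-gated cells, 17.8% of cells, held 1.73%. In crush at 1 week 83.0% lay in the 4.38% of cells that were lipid-laden gated. Lipid-laden gated cells held 62.5% in PSNL at 15 weeks, with 7.67% of cells, and 79.6% in crush at 15 weeks, with 31.1% of cells. Arg1-gated cells led in PSNL at 1 week alone among the 4 injured groups, where at 15 weeks their gate was nearly empty, with 6 cells in PSNL.

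Among the receptor genes, Cd44, the hyaluronan receptor, was, like Spp1, highest in PSNL at 1 week. The PSNL female and male had 726 and 827 CPM, against 362 and 192 CPM in the crush pair and 367 and 444 CPM in the sham pair. At 15 weeks it was at 288, 255, 211 and 207.5 CPM in PSNL F1, F2, M1 and M2 and at 433, 186 and 195.5 CPM in crush F1, F2 and M1. PSNL at 1 week lay above all other samples, and crush at 1 week lay below sham. By gate, Cd44 was higher in neutrophil-gated cells by 1.91 (adjusted p = 1.1e-08), in eosinophil-gated cells by 1.27 (adjusted p = 0.0062) and in Arg1-gated cells by 0.61 (adjusted p = 0.0029). It was lower in migratory dendritic-gated cells by -1.97, in microglia-like gated cells by -1.54 and in resident-gated macrophages by -0.80. Neutrophil-gated cells had 1320 and 1610 CPM of Cd44 in PSNL and 952 CPM in the crush male, and microglia-like gated cells had 41.1 to 193 CPM. The neutrophil-gated share of cells was 27.4 and 11.9% in PSNL against 2.11 and 3.97% in crush.

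Itgav, the alpha chain of the motif-reading integrins, had little spread within the injured groups at 1 week and more within sham. The PSNL female and male had 92.2 and 92.9 CPM, the crush female and male 49.2 and 49.3 CPM and the sham female and male 26.2 and 38.5 CPM. The sham levels of Itgav rest on 6 and 22 UMIs. The late samples were higher, at 114, 108, 112 and 101 CPM in PSNL F1, F2, M1 and M2 and at 101, 106 and 143 CPM in crush F1, F2 and M1, all above every sample of 1 week. Itgav was higher in Arg1-gated cells by 0.76 (adjusted p = 0.0095), in microglia-like gated cells by 0.60 (adjusted p = 0.001) and in ungated cells by 0.29 (adjusted p = 0.037), and lower in dendritic-gated cells by -1.15 and in resident-gated macrophages by -1.0. Under a stricter gate the Arg1 and microglia-like differences were 0.64 (adjusted p = 0.0732) and 0.67 (adjusted p = 0.0504).

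Itgb5, a beta partner of the alpha v chain, was higher at the late time, where Spp1 was lower. It was at 311, 285, 288 and 271.5 CPM in PSNL F1, F2, M1 and M2 and at 227, 295 and 447 CPM in crush F1, F2 and M1 at 15 weeks. The early samples had 95.0 and 80.6 CPM (PSNL female and male), 151 and 223 CPM (crush female and male) and 65.5 and 42 CPM (sham female and male). All late samples lay above all early ones, and the crush samples of 1 week lay above PSNL and sham. Between the times, which were separate batches, 56.3% of all tested genes were called in PSNL and 42.6% in crush. By gate, microglia-like gated cells were higher by 1.21 (SE 0.16, adjusted p = 4.4e-06), at 463 to 742 CPM, and lipid-laden gated cells by 0.71 (adjusted p = 0.00077; 0.24, adjusted p = 0.265, under the stricter gate). Dendritic-gated cells were lower by -2.62, migratory dendritic-gated cells by -2.37 and resident-gated macrophages by -0.66. In Arg1-gated cells, which had the most Spp1 UMIs, Itgb5 was at 47.2 and 56.8 CPM (-0.59, adjusted p = 0.054).

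Itgb1, the beta chain shared by the alpha v and alpha 4 receptors, was called in none of the 7 comparisons of groups. It was at 288, 292.5, 314.5 and 344 CPM in PSNL F1, F2, M1 and M2 at 15 weeks, at 315, 295 and 353.5 CPM in crush F1, F2 and M1 at 15 weeks, at 304.5 and 414 CPM in PSNL at 1 week, at 326 and 282 CPM in crush at 1 week and at 319 and 394 CPM in sham. All pairs of groups overlapped. It differed between gates, lower in eosinophil-gated cells by -1.42 (adjusted p = 0.026) and in neutrophil-gated cells by -1.04 (adjusted p = 0.0057), and higher in migratory dendritic-gated cells by 0.85 (adjusted p = 0.049; 0.88, adjusted p = 0.0569, under the stricter gate).

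Itga4, the alpha chain that reads the thrombin-exposed stretch and that also binds VCAM-1, was lowest in PSNL at 1 week. The PSNL female and male had 153 and 110 CPM, the crush female and male 233 and 318 CPM and the sham female and male 188 and 231 CPM. At 15 weeks it was at 253.5, 269, 219 and 210 CPM in PSNL F1, F2, M1 and M2 and at 241, 206 and 189 CPM in crush F1, F2 and M1. Both PSNL samples of 1 week lay below all other samples. Migratory dendritic-gated cells, tested in PSNL at 1 week since no other sample had 20 of them, were higher by 2.35 (SE 0.33, adjusted p = 8.0e-11), at 529 and 352 CPM, and dendritic-gated cells were higher by 0.47 (adjusted p = 0.0042). Arg1-gated cells were lower by -1.34 (SE 0.17, adjusted p = 0.00013), at 61.4 and 47.6 CPM, lipid-laden gated cells by -0.62 (adjusted p = 0.0066) and resident-gated macrophages by -0.29 (adjusted p = 0.037). Arg1-gated and lipid-laden gated cells, which had more Spp1, thus had less Itga4 than the other cells of their samples, while the fibroblast list's gate, also with more Spp1, had Itga4 at -0.26 without a call (adjusted p = 0.89).

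Itgb3, the beta chain of the vitronectin receptor that osteoclasts use, was near the limit of detection. It had 1, 5, 3 and 4 UMIs in PSNL F1, F2, M1 and M2 and 0, 2 and 9 UMIs in crush F1, F2 and M1 at 15 weeks, 4 and 8 UMIs in the PSNL female and male, 5 and 15 UMIs in the crush female and male and 0 and 1 UMIs in the sham female and male. The 0 of the sham female allows up to 12.1 CPM, above the level of every other sample. Eosinophil-gated cells of crush at 1 week held 8 of these 57 UMIs, 2 in the female and 6 in the male. These were 69 cells with a median depth of 973 UMIs. Itgb3 passed the filter on low counts in the comparison of that gate alone, through the cells in which it was high, so no test of it is given. In that gate's list Epx had 0 UMIs in all kept cells, and Ccr3, Siglecf and Alox15 were each in 1.22 to 1.33% of them.

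**Figure D5:**
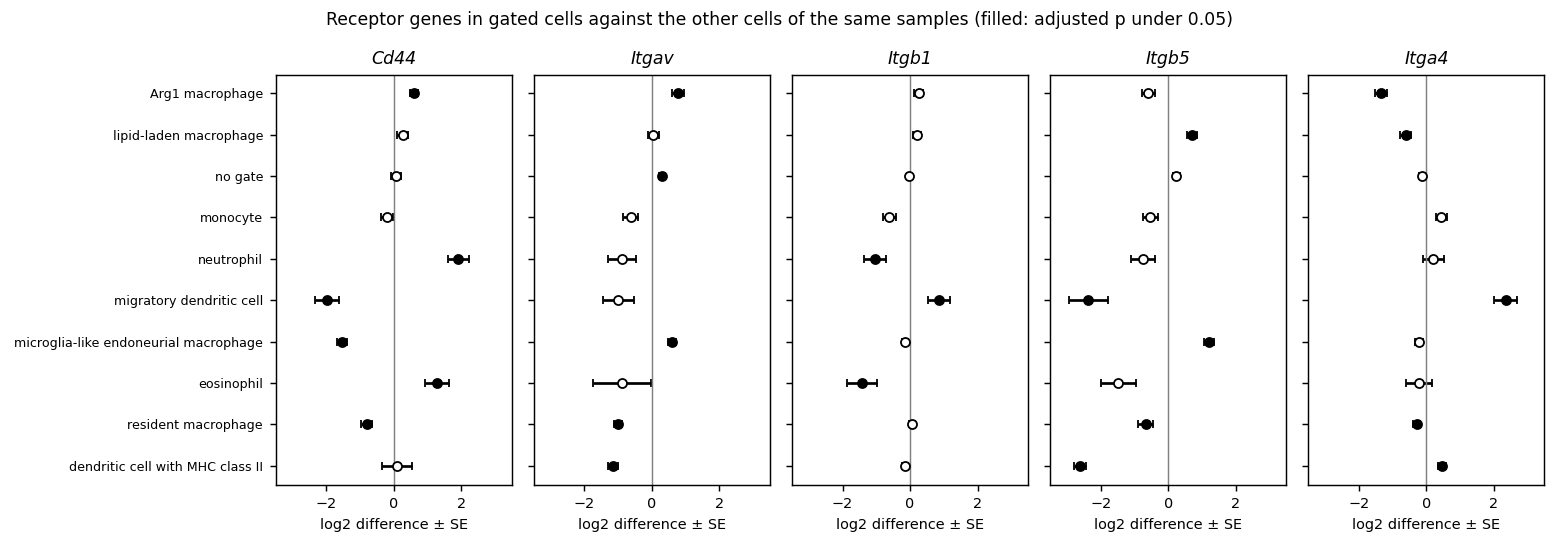
Difference of 5 receptor genes between the cells of a gate and the other cells of the same samples (horizontal axis, log2 with bars of 1 standard error), filled where the adjusted p was under 0.05. Cd44 is farthest to the right in neutrophil-gated cells (1.91), Itgb5 in microglia-like gated cells (1.21) and Itga4 in migratory dendritic-gated cells (2.35).

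Where a gate held 2 or more samples of each group, the groups were also compared within it. In ungated cells Spp1 was higher in PSNL than in sham at 1 week by 7.73 (SE 0.71, adjusted p = 2.3e-05, 1.88% of genes called) and higher in PSNL than in crush by 5.09 (SE 0.55, adjusted p = 0.00011, 3.96% called), and Itga4 was lower in PSNL than in crush by -1.28 (adjusted p = 0.021). The PSNL excess of Spp1 was thus also present in ungated cells, which include cells that fell short of the thresholds of a gate. In the PSNL male 1 ungated cell held 942 Spp1 and 14 Arg1 UMIs. At 15 weeks against 1 week, ungated cells of PSNL had less Spp1 (-6.45) and Cd44 (-1.15) and more Itga4 (1.39), Itgb5 (1.13) and Itgav (0.57), with 46.0% of genes called, and ungated cells of crush had more Itgav (1.04, 35.8% called). Lipid-laden gated cells of crush had less Spp1 at 15 weeks than at 1 week, by -4.15 (SE 0.26, adjusted p = 3.3e-06, 11.2% called), and more Itgav, by 1.28 (adjusted p = 0.045). At 1 week 1 cell in each crush sample held 1401 of 2215 and 680 of 1116 Spp1 UMIs of the gate. Without the highest cell of each sample, an alternative chosen after seeing the data, the gate was at 5030 and 3120 CPM in the crush female and male of 1 week and the change over time was -3.23 (SE 0.26, adjusted p = 3.28e-05). Microglia-like gated cells of crush had less Spp1 as well, by -1.78 (SE 0.39, adjusted p = 0.002, 28.7% called).

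In dendritic-gated cells Spp1 and Itgb1 were called in none of the 5 comparisons, and the calls fell on Itga4, Cd44, Itgb5 and Itgav. Itga4 was lower in PSNL than in crush at 1 week by -1.46 (SE 0.26, adjusted p = 0.026, 0.281% of genes called), at 130 and 104 CPM in PSNL against 281 and 329 CPM in crush. At 15 weeks against 1 week, dendritic-gated cells of PSNL had more Itga4 (1.66), Cd44 (1.58) and Itgb5 (2.57, adjusted p = 0.047), with 26.7% of genes called. Those of crush had more Cd44 (2.09) and Itgav (1.31), with 21.9% called. Cd44 therefore went up with time in dendritic-gated cells of PSNL and down in all cells of PSNL together. The difference of the PSNL minus crush differences was called for Itga4 in dendritic-gated cells (-1.82, adjusted p = 0.042) with 0.107% of genes called, and for Spp1 in ungated cells (5.43, adjusted p = 0.00071), with 1.44% called.

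A list of 37 further genes of the osteopontin pathway was counted in the same fits, of which 24 passed the filter. It held other integrin chains, the other members of the osteopontin family, proteases that cut osteopontin, other integrin ligands, and adaptors and kinases. The other family members Ibsp, Dmp1, Dspp and Mepe had 0 UMIs in the kept cells, as had Plg, the plasminogen gene, while F2, the thrombin gene, had 1, and 0 UMIs over all samples allows up to 0.061 CPM. Between PSNL and sham at 1 week 1 gene of the list rose (4.17%, beside 5.21% of all tested genes), Thbs1, the gene of the matrix protein thrombospondin, by 3.73 (adjusted p = 0.0078). Lims1, Itga5 and Ptk2b followed without a call, at 0.70, 1.64 and 0.92. Between crush and sham none was called, with Mmp9 at -1.42, Itga9 at -1.19, Ptk2b at 0.92 and Cd47 at 0.37. Between PSNL and crush at 1 week 4 of the 24 rose (16.7%, beside 12.5% of all tested genes) and none fell. These were Thbs1 by 2.85, the gelatinase gene Mmp9 by 1.48, the fibronectin receptor chain Itga5 by 1.26 and Itga9, the other chain that reads the thrombin-exposed stretch, by 1.01. Thbs1 averaged 964 CPM in PSNL, 134 CPM in crush and 59.9 CPM in sham at 1 week. At 15 weeks none was called, with Vcam1 at 1.5, Mmp9 at 0.77, Itga5 at -0.49 and Mmp12 at -2.14. The list's median change was 0.16 in PSNL against sham, 0.15 in crush against sham, 0.05 in PSNL against crush at 1 week and -0.02 at 15 weeks, beside 0.10, 0.09, -0.02 and -0.01 for all tested genes.

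Over time, 5 genes of the list rose and 11 fell in PSNL (66.7% of the 24 called, beside 56.3% of all tested genes), and 4 rose and 7 fell in crush (45.8%, beside 42.6%). Itga9 rose in both, by 2.46 in PSNL (adjusted p = 9.4e-07) and by 3.27 in crush (adjusted p = 4.6e-07), and averaged 87.0 and 75.9 CPM in PSNL and crush at 15 weeks, against 15.8 and 7.73 CPM at 1 week. Thbs1 fell by 7.43 in PSNL and by 4.83 in crush. Cd47, the gene of a thrombospondin receptor, fell by 1.08 and 1.05, Ezr, which links CD44 to the cytoskeleton, fell by 2.46 in PSNL, and Tln1, the integrin activator talin, fell by 0.80 in crush. The list's median change was -0.36 in PSNL and 0.07 in crush, beside 0.03 and 0.01 for all tested genes. The difference of differences was called for Itga5 (1.75, adjusted p = 0.0368) and, downward, for Vcam1 (-3.54, adjusted p = 0.0475). It was 2.61 for Thbs1 and 1.14 for Ezr, without a call.

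Likeness across samples was measured as Pearson's r of log2 CPM over the 13 samples among tested genes. The samples share libraries and times, so these values describe the samples and carry no test. The 5 genes most like Spp1 were Plin2 (0.965), which coats lipid droplets, Tmem199 (0.951), Mrpl52 (0.934), Ocstamp (0.932), named for fusion of osteoclasts, and Ngdn (0.931). Those most like Cd44 were Capn2 (0.952), Fas (0.942) and Rgcc (0.942), and those most like Itga4 were Tagap (0.942), Il6ra (0.923) and Pdcd4 (0.912). Itgav was most like A930007I19Rik (0.973), Slc16a10 (0.971) and Pcnx (0.971), and Itgb5 most like AU020206 (0.986), Tgfbr1 (0.971), a receptor for TGF-beta, and Extl3 (0.97). The values for Itgb1 were lower, at 0.866 for Slc48a1, 0.862 for Stt3a and 0.836 for Vps51. Among the members, the r with Spp1 was 0.602 for Cd44, 0.333 for Itgb1, 0.108 for Itgav, -0.257 for Itgb5 and -0.677 for Itga4, and that of Itgav with its partner Itgb5 was 0.734.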

How the data were processed

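For each library the authors deposited a matrix of unnormalized UMI counts, with a row for each gene and hashtag antibody. GRCm38, Seurat 5.1.0 and Cell Ranger 6.0.0 stand in the submitters' processing notes. The headers of the matrices carry Cell Ranger 6.0.0 for the early and 7.0.0 for the late libraries. The counting of intronic reads is not given in the sources used here and could move levels between the times. The libraries held 2471 (PSNL and sham, 1 week), 1920 (crush and sham, 1 week), 2067 (PSNL, 15 weeks) and 2675 (crush, 15 weeks) barcodes, with medians of 4330, 3807, 6210 and 7704 UMIs. A hashtag of the crush library at 15 weeks with 110 UMIs and no label was left out.

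The 7 genes, the pathway and marker lists, the tests and the alternatives were chosen with earlier results of these data known. A barcode belonged to a hashtag when only that count was past the lowest point between low and high counts (density of log10 counts, bandwidth 0.15), and a cell needed 500 genes or more and less than 10% mitochondrial UMIs. Scrublet (scanpy 1.11.5) called 0 to 4 doublets per library, too few to work, and no doublets were removed in the main analysis. Counts were summed per hashtag sample, filtered with filterByExpr, scaled by TMM and put to edgeR's quasi-likelihood test (edgeR 4.0.16, R 4.3.3) in a single fit of the 13 samples, which left 8 residual degrees of freedom, and an adjusted p under 0.05 (Benjamini-Hochberg over all tested genes) was called. Gates were compared with the other cells of the same samples with sample as a block, where at least 20 cells were in and outside the gate. A gate tested in 2 samples left far fewer residual degrees of freedom than the main fit. Its small p-values therefore rest mostly on variance estimates shared across genes. The script was tested on simulated data. Replicate libraries differed by more than sampling noise (chi-square per degree of freedom 4.40 to 45.2). Named were the 7 genes, up to 4 pathway genes per comparison with the smallest adjusted p, and the genes most correlated with each member. Alternatives were HTODemux (Seurat 5.3.0, quantile 0.99), other cell and count filters, DESeq2 1.42.0, other sample sets, library and replicate terms, leaving out each sample, a stricter gate (1.0 and 0.5), other thinning, and, added after seeing the data, leaving out the cell with the most Spp1 UMIs of each sample.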

Additional observations from a re-analysis of the deposited data

Results flagged for a closer look

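The PSNL minus crush difference was not the same at both times for 3 members, by edgeR's test of the difference itself. The value was 3.65 for Spp1, 1.02 for Itgav and -1.24 for Itga4 on the log2 scale, with adjusted p of 0.0321, 0.0197 and 0.018. Time coincides with batch and injury with library, and their part in these values cannot be told apart.

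Spp1 was also high in barcodes that no comparison used because they carried several hashtags. It was at 4046 CPM in 621 such cells of the PSNL and sham library of 1 week (25333 UMIs) and at 330.7 CPM in 387 cells of the crush and sham library of 1 week (931 UMIs), both above the highest sham sample, at 77.4 CPM before TMM scaling. Such barcodes can hold cells of more than 1 sample, so they have no group.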

How the results depend on the processing

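Spp1 kept its direction and its call for PSNL against sham (5.07 to 8.10 over all alternatives) and for PSNL at 15 weeks against 1 week. The fall of Spp1 in crush over time was not called with HTODemux (-1.25, adjusted p = 0.151) or without the cell with the most Spp1 UMIs of each sample (-1.15, adjusted p = 0.157), and the difference of differences was not called without the 6% highest doublet scores (3.60, adjusted p = 0.0559). Spp1 in crush against sham was called with no filter on low counts (3.4, adjusted p = 0.00199) and by DESeq2 (3.35, adjusted p = 0.013). The other 21 of 23 alternatives did not call it. HTODemux gave the lowest value of these, 1.064 (adjusted p = 0.6532), against 3.417 in the main fit. With library as a term Spp1 in PSNL against crush at 1 week was at 3.33 (adjusted p = 0.19), Itgav in PSNL against sham lost its call (1.72, adjusted p = 0.0728), and the counts of called genes fell to 13 for PSNL against crush at 1 week, 154 for PSNL against sham and 0 for crush against sham. With a stricter gate the lower Spp1 of ungated cells was -0.33 (adjusted p = 0.77), and Cd44 in dendritic-gated cells reversed to -0.14. Cd44 in crush over time, near 0, reversed to 0.027 without neutrophil-gated and lymphoid-gated cells, to 0.0040 with no filter and to 0.031 by DESeq2, and Itgb1 in PSNL against sham to -0.031 with no filter, -0.12 with only the groups compared and -0.073 by DESeq2. The cause was not tested. The count for crush against sham, 19, was 124 by DESeq2, 84 with every barcode, 11 with the 3 times hashtag rule, 38 with HTODemux, 152 with no filter, 1 with only the groups compared, 29 without neutrophil-gated and lymphoid-gated cells, 6 without high doublet scores and 12 without the cells with most Spp1. For PSNL against sham it was 1083 with every barcode, and for PSNL against crush at 15 weeks it was 8 by DESeq2 and 8 with no filter.

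Leaving out 1 sample at a time gave Spp1 values of 6.55 to 6.83 (PSNL against sham), 2.59 to 3.97 (crush against sham), 2.73 to 4.11 (PSNL against crush, 1 week), -0.96 to 0.30 (PSNL against crush, 15 weeks), -6.26 to -5.37 (PSNL over time), -2.70 to -1.18 (crush over time) and 2.97 to 4.50 (difference of differences), and called 150 to 838, 0 to 112, 362 to 1815, 0 to 2, 4585 to 6847, 3006 to 5179 and 198 to 1170 genes in that order of comparisons. Values near 0 changed sign within these ranges for Itgb1 (-0.22 to 0.22 in PSNL against sham, -0.41 to 0.028 in PSNL over time and -0.11 to 0.032 in PSNL against crush at 15 weeks, and -0.015 in crush over time without the crush male of 1 week), for Cd44 (-0.53 to 0.50 in crush over time, -0.38 to 0.33 in PSNL against crush at 15 weeks) and, in PSNL against crush at 15 weeks, for Itgav (-0.20 to 0.085) and Itgb5 (-0.36 to 0.16). At 15 weeks the numbers F1, F2 and M1 occur in both injuries, but deviations correlated at 0.0864, 0.181 and 0.123, so they were not taken as pairs. With a replicate block over those 6 samples Spp1 was at -0.94 (SE 0.30, adjusted p = 0.53) and 0 genes were called, against -0.97 and 0 genes for the same samples without the block. With 64 and 106 sham cells, the sham levels of single genes rest on few UMIs (17 and 47 for Spp1).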
